A study of Mus musculus with 6 samples.

Results

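Transcripts of voltage-gated sodium and calcium channel subunits were compared between old and young mouse cochlear lateral wall. Members were all symbols of the deposited table that begin with Scn and a digit or with Cacna, Cacnb or Cacng. The rule used no measured value, but it was chosen with earlier results of these data known. It took 35 of 17091 genes, 12 of sodium and 23 of calcium channels. The old group was 3 CBA/CaJ mice aged 2.5 years and the young group 3 CBA/CaJ mice aged 2 months, an inbred strain, and the labels name no engineered allele or treatment in either group. Every sample pooled both cochleas of 1 mouse, so each library is 1 animal. Dissected lateral wall is given as the tissue, but auditory nerve cells stand as the source of every sample.

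The markers of lateral wall cells were present in every library. The summed level of 10 marginal cell markers was 290916 to 386402 in old and 368407 to 397803 in young libraries, that of 10 spiral ligament fibrocyte markers 584541 to 1219430.0 in old and 1245462 to 1444465 in young libraries, and that of 8 intermediate cell markers 204546 to 305264 in old and 244609 to 255876 in young libraries (normalised read counts). The deposited values, here called normalised read counts, are read counts divided by 1 factor per library as judged from the values themselves. They correspond to 37055355 to 39103398 reads a library. Xist, the RNA of the silenced X chromosome, had 45.2 normalised read counts in old replicate 3, while the other 5 libraries ranged between 24382 and 29162. The labels used here do not give sex, and the part of sex in the age differences was not tested. The summed level of 16 erythroid and neutrophil markers was 26414, 7872 and 52501 normalised read counts in old replicates 1, 2 and 3, against 5274, 4158 and 3360.2 in young replicates 1, 2 and 3.

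Voltage-gated sodium channels have a large alpha subunit that forms the pore and opens on depolarisation, and small beta subunits with an immunoglobulin fold that change its gating and its place in the membrane. Calcium channels have a pore-forming alpha1 subunit of the L, P/Q, N, R or T type, which beta and alpha2delta subunits help to bring to the surface and tune. In the cochlea these channels are best known from the auditory nerve, where sodium channels carry the action potential, and from inner hair cells, where the L-type channel of Cacna1d triggers transmitter release. The lateral wall itself is built of strial epithelium, fibrocytes and vessels. In bulk tissue, fewer cells of a type and less RNA per cell cannot be told apart.

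Of the 35 channel genes, 2 were higher and 3 lower in old mice (limma on all 17091 genes, Benjamini-Hochberg adjusted p below 0.05). The 2 that rose were of sodium channels, Scn4b and Scn9a, and the 3 that fell were of calcium channels, Cacna1e, Cacna2d2 and Cacng4. These are 14.3% of the channel genes, where 5.25% of all genes were called, 2.71% higher and 2.55% lower. Old and young values did not overlap in 14 channel genes, which is 40.0% of them, where 26.1% of all genes did not overlap. Old values were above in 8 of them (13.2% of all genes), among them Scn1a, Scn3a, Scn4b, Scn7a, Scn9a, Cacna1b and Cacna1i. They were below in 6 (12.8% of all genes), among them Cacna1e, Cacna2d2, Cacna2d4, Cacnb1 and Cacng4. An unadjusted p under 0.05 was found for 13 channel genes, against 21.3% of all genes. The median log2 fold change of the channel genes was −0.06, beside −0.00 over all genes, with 0.62 for the 12 sodium and −0.12 for the 23 calcium channel genes. The median of all 35 changed sign with the library left out, between −0.12 and 0.12. On the reads recovered, edgeR called 5 channel genes (5.07% of all genes) and DESeq2 called 7 (10.9% of all genes with an adjusted p). With old replicate 3, where Xist was low, left out, Scn4b, Scn9a and Cacna1e were still called, and Cacna2d2 and Cacng4 were not. Without young replicate 1 the same 3 genes were called, and without young replicate 2 or 3 only Scn4b and Cacna1e were. When limma was fitted without a trend of variance on level, none of the 3 lower calls held (adjusted p of 0.0847 for Cacna1e, 0.11 for Cacna2d2 and 0.0827 for Cacng4).

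**Figure D1:**
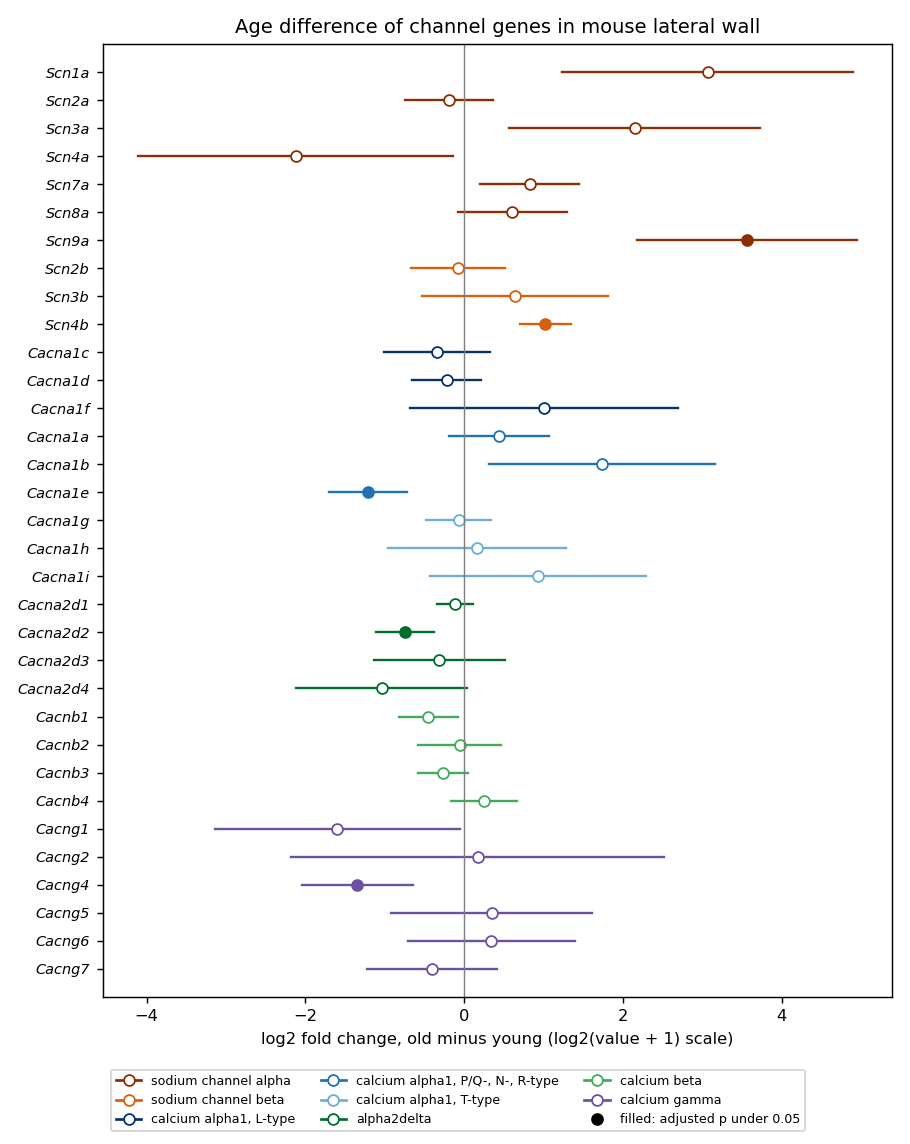
Difference of the channel genes reported here (y axis) between old and young mice as a log2 fold change of value + 1 (x axis, positive where old is higher). Points are limma estimates from 3 old and 3 young libraries, lines are 95% intervals, colours are subunit classes and filled points have an adjusted p under 0.05. Scn4b and Scn9a lie right of 0, Cacna1e, Cacna2d2 and Cacng4 lie left of it, and the widest lines are those of Cacng2, Scn4a and Scn1a.

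The subunits differed in level by orders of magnitude. Levels between genes are given as normalised read counts per kb of the longest annotated transcript. Among the highest were Cacnb3, a calcium channel beta subunit gene, with 426 per kb in old and 508 in young mice, and Cacna2d1, the gene of the gabapentin-binding alpha2delta subunit, with 404 per kb in old and 436 in young mice. Cacna1d followed with 279 per kb in old and 317 in young mice, and Cacnb2 with 292 per kb in old and 304 in young mice. Cacna2d2, Cacnb4 and Scn4b were also among the 8 highest. In the old libraries the per kb ranges of Cacnb3, Cacna2d1, Cacna1d and Cacnb2 overlapped between neighbours in this order, and in the young libraries those of Cacna1d and Cacnb2 did. At the other end, 8 members averaged under 10 normalised read counts over the 6 libraries, 11 averaged 10 to 100, and 16 averaged at least 100. The median member averaged 94.4 normalised read counts, where the median gene of the table averaged 597.

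**Figure D2:**
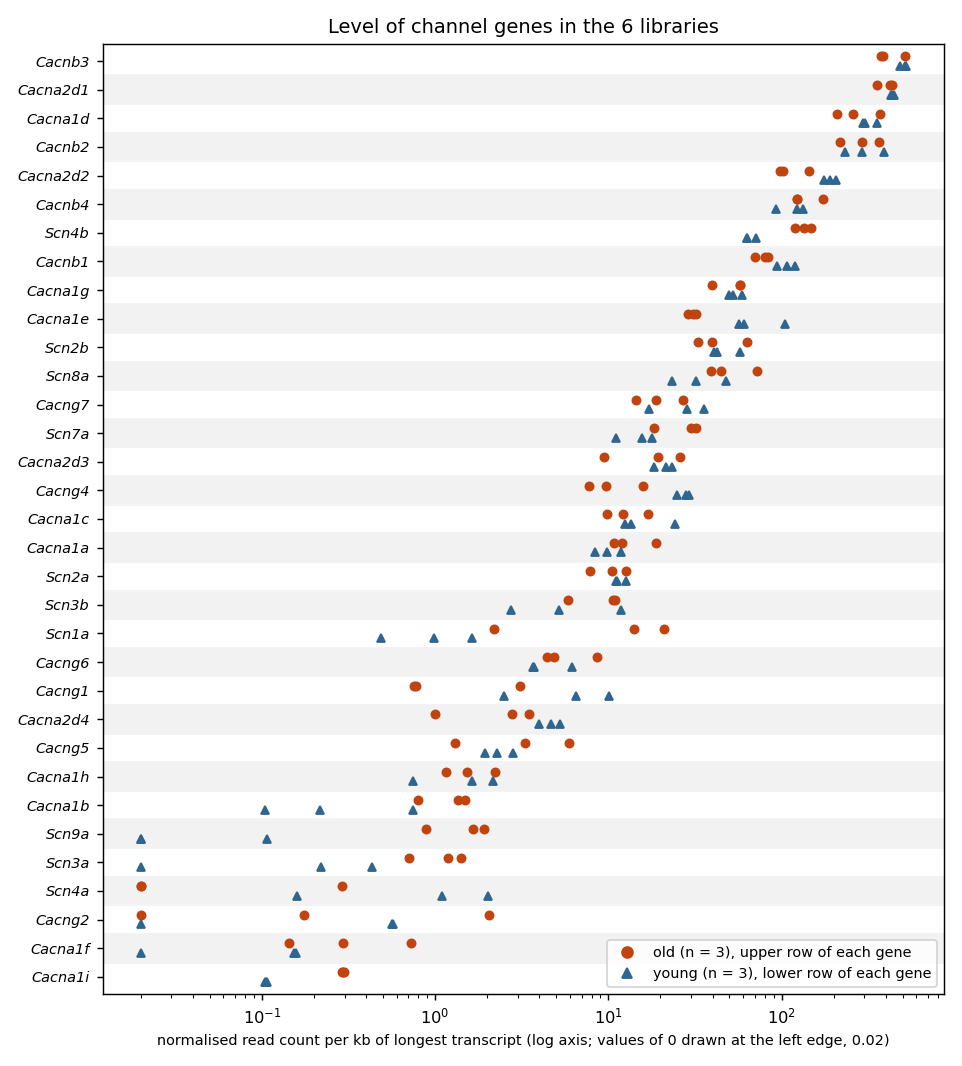
Level of the channel genes reported here (y axis, ordered by the mean of 6 libraries) as normalised read count per kb of the longest transcript (x axis, log scale). Circles are the 3 old and triangles the 3 young libraries. The calcium channel genes Cacnb3, Cacna2d1, Cacna1d and Cacnb2 lie at the top, and all old points of Scn9a and Scn1a lie right of their young points. Values of 0 are drawn at the left edge.

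In 4 of the 8 sodium channel alpha genes, Scn1a, Scn3a, Scn7a and Scn9a, all old values lay above all young values. The same was seen in 13.2% of all genes, and of these 4 only Scn9a was called (limma). Scn3a and Scn9a averaged under 10 normalised read counts. The 4 genes share 1 cluster on chromosome 2 with Scn2a, whose groups overlapped. In GRCm38 (mm10) Scn3a lies on chromosome 2 from 65457118 to 65567627, Scn2a on chromosome 2 from 65620771 to 65767447, Scn1a on chromosome 2 from 66270778 to 66440840, Scn9a on chromosome 2 from 66480080 to 66634962 and Scn7a on chromosome 2 from 66673425 to 66784914. Scn1a, Scn9a and Scn7a follow each other on the minus strand with gaps of 39.2 and 38.5 kb and no other protein-coding gene between them. Because their old values all lay above their young values, the bases before their start sites are shown (RefSeq, GRCm38.p6, minus strand, read 5′ to 3′, CpG dinucleotides in capitals). The windows are chr2:66440838-66441087, chr2:66634963-66635212 and chr2:66784911-66785160, each of 250 bases. Scn3a also had all old values above all young values, but no RefSeq window matched it.
Scn1a: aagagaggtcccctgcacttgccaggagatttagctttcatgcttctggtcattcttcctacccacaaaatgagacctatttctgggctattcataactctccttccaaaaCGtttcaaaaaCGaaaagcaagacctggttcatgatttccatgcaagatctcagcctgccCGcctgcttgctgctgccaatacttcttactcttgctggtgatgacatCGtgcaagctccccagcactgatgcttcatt
Scn9a: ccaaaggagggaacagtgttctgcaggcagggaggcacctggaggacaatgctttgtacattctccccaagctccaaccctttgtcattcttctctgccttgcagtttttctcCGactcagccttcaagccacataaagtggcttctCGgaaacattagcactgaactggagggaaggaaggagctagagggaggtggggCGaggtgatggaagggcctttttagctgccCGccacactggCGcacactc
Scn7a: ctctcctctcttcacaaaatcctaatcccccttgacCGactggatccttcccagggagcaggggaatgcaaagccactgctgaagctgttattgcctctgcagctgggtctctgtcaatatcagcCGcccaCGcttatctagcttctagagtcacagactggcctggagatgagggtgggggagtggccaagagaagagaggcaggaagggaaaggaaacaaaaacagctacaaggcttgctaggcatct
These windows hold 4, 5 and 3 CpG dinucleotides, where the median of 32851 mouse promoter windows of that length is 6. Their GC content was 46.8%, 54.4% and 53.2%, beside a median of 52.4%. On either strand the letters GGGCGG (GC box) occur in the Scn7a window, 126 bases before the start site, and in 32.7% of all windows. The TATA box letters TATAAA are in none of the 3 windows and in 12.4% of all windows. The left part of the REST site, spelt TTCAGCACC, is likewise in none of the 3 and in 0.301% of all.

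Scn9a encodes a sodium channel of peripheral sensory and sympathetic neurons that is needed for pain signalling. It had 8.73, 18.9 and 16.3 normalised read counts in old replicates 1, 2 and 3, against 1.05, 0 and 0 in young replicates 1, 2 and 3. All old values lay above all young values, and 2 young libraries had no read. The reads numbered 46 over the old and 1 over the young libraries, a ratio of 42.6 (95% interval from the counts alone, 7.27 to 1718). On the log2(value + 1) scale the difference was 3.56 ± 0.61 (SE, limma adjusted p = 0.0146). With so few reads this size depends on the constant added, and it was 5.96 with 0.1 and 1.23 with 10. Leaving out young replicate 2 or 3 ended the call (limma adjusted p = 0.0537 and 0.0605). An exon of Scn9a overlaps Gm13629 on the opposite strand, and strand is not stated for these libraries, so its reads are uncertain.

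Scn1a encodes the main sodium channel of many fast-spiking neurons. It had 18.4, 117 and 177 normalised read counts in old replicates 1, 2 and 3, against 13.6, 8.3 and 4.08 in young replicates 1, 2 and 3. Old replicates 2 and 3 were far above the other 4 libraries, while old replicate 1 was close to young replicate 1. The log2 fold change was 3.07 (95% interval 1.24 to 4.90) and did not pass (limma adjusted p = 0.0686). It passed without old replicate 1 (limma adjusted p = 0.00525), and its adjusted p was 0.0465 by edgeR and 5.1e-05 by DESeq2. Scn3a, a channel gene mostly of the developing nervous system, had 6.79, 11.3 and 13.5 in the old libraries, against 2.1, 4.15 and 0 in the young libraries, a log2 fold change of 2.15 (0.57 to 3.73, limma adjusted p = 0.119).

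Scn7a encodes a sodium sensor related to these channels that is known from glia and is not opened by voltage. It had 235, 219 and 135 normalised read counts in old replicates 1, 2 and 3, against 131, 115 and 81.7 in young replicates 1, 2 and 3. The lowest old value, in replicate 3, was just above the highest young value. Its log2 fold change was 0.82 (0.20 to 1.45, limma adjusted p = 0.13), and the adjusted p was 0.0491 by DESeq2. Scn2a, the other gene of the cluster and a channel gene of central axons, averaged 92.6 ± 21.7 normalised read counts in old and 104 ± 7.95 in young mice (SD, n = 3 each), and the groups overlapped (log2 fold change −0.19, −0.74 to 0.36). The protein-coding genes between Scn2a and Scn1a are Csrnp3, Galnt3 and Ttc21b. Their log2 fold changes were 0.55, 0.13 and 0.14 with limma adjusted p of 0.782, 0.625 and 0.708. Scn1a, Scn2a, Scn3a and Scn9a are similar in coding sequence, and the sources used here do not give how reads that match several genes were counted.

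Neuron markers, taken as a sum, were highest in old replicates 2 and 3, as Scn1a was, whereas Scn7a was highest in old replicate 1. The summed level of the 20 neuron markers was 5131, 12218 and 13960.4 normalised read counts in old replicates 1, 2 and 3, against 4456, 4605 and 4247 in young replicates 1, 2 and 3, and none of the markers was at 0 throughout. Of the 20 neuron markers, 3 rose and 1 fell (limma), with a median log2 fold change of 1.70. In either direction edgeR called 5 of them and DESeq2 13. Stmn2, a microtubule regulator of growing axons, had 169.7, 361 and 486 in the old libraries, against 53.5, 46.7 and 15.3 in the young libraries (3.16 ± 0.53, limma adjusted p = 0.0166). Slc17a7, the vesicular glutamate transporter of spiral ganglion neurons, had 68.8, 257 and 342 in the old libraries, against 27.3, 31.1 and 9.19 in the young libraries (3.13 ± 0.66, limma adjusted p = 0.035). Without 1 library, the limma adjusted p reached 0.0528 for Stmn2 and 0.115 for Slc17a7. The marker that fell was Syt1, a calcium sensor of synaptic vesicles, with 96, 73.8 and 101 in the old libraries, against 229.8, 196 and 181 in the young libraries (−1.16 ± 0.22, limma adjusted p = 0.0189). The part of nerve tissue in the sodium channel values was not tested.

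**Figure D3:**
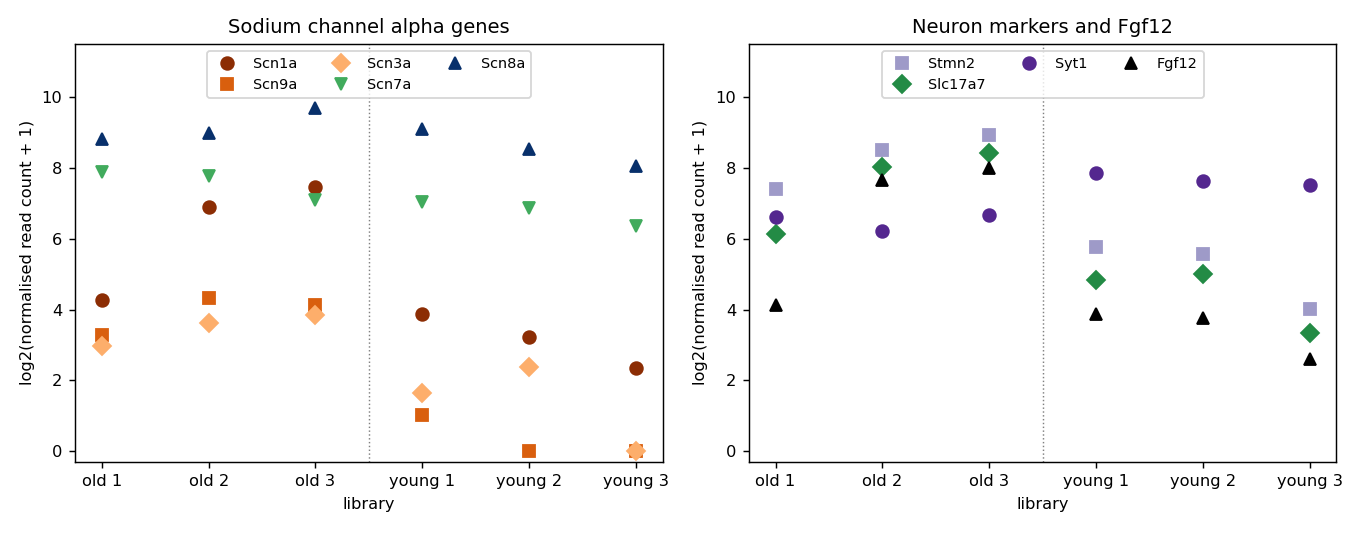
Log2(normalised read count + 1) of 5 sodium channel alpha genes (left) and of 3 neuron markers with Fgf12 (right) in each library (x axis). Each point is 1 library. Scn2a and Scn4a, whose means were not higher in old mice, are not drawn, and Fgf12 was singled out after its values were seen. Scn1a and Fgf12 are high in old replicates 2 and 3 and low in the other 4 libraries, Stmn2 and Slc17a7 are highest in the same libraries, and Syt1 is lower in all old libraries.

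Scn8a, which encodes the channel of the nodes of Ranvier, averaged 594 ± 199.9 normalised read counts in old and 394 ± 144 in young mice (SD, n = 3 each). The groups overlapped, with a log2 fold change of 0.61 (−0.08 to 1.29, limma adjusted p = 0.294). Over the 8 alpha genes, the summed level was 137, 157 and 192 per kb in old replicates 1, 2 and 3, against 154, 139 and 128 per kb in young replicates 1, 2 and 3, so the sums overlapped.

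Scn4a encodes the sodium channel of skeletal muscle, and Cacng1 encodes a subunit that is specific to the skeletal muscle calcium channel. Scn4a had 0, 0 and 1.92 normalised read counts in old replicates 1, 2 and 3, against 1.05, 7.26 and 13.3 in young replicates 1, 2 and 3, which rests on 2 reads over the old and 21 over the young libraries. The ratio of old to young was 0.0881 (95% interval from the counts alone, 0.01 to 0.361). Cacng1 had 0.97, 0.946 and 3.84 in the old libraries, against 12.6, 3.11 and 8.17 in the young libraries, or 6 and 23 reads in old and young libraries. Both genes overlapped between the groups, since old replicate 3 was above the lowest young library, and neither passed (limma adjusted p = 0.206 for Scn4a and 0.22 for Cacng1). The 19 skeletal muscle markers summed to 755 to 959.8 in old and 937 to 1154 in young libraries, 2 of them fell and 0 rose (limma), and their median log2 fold change was −0.99. The part of muscle fibres in these values was not tested.

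Among the sodium channel beta genes, Scn4b was higher in old mice. Its product is known for a resurgent current in neurons that fire fast. Scn4b had 592, 669 and 735 normalised read counts in old replicates 1, 2 and 3, against 313, 314 and 353 in young replicates 1, 2 and 3. All old values lay well above the young values, with means of 666 ± 71.4 normalised read counts in old and 327 ± 23 in young mice (SD, n = 3 each). The log2 fold change was 1.02 ± 0.14 (SE, limma adjusted p = 0.00605). The call held without each library in turn (limma adjusted p of 0.00892 to 0.033). Scn4b lies on chromosome 9 from 45138395 to 45154152 and none of its exons overlaps an annotated gene on the opposite strand.

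Scn2b averaged 211 ± 74 normalised read counts in old and 218 ± 43.2 in young mice (SD, n = 3 each), and Scn3b averaged 37.9 ± 11.9 in old and 27.4 ± 19.6 in young mice, and both overlapped between the groups. Their log2 fold changes were −0.08 (−0.67 to 0.52) and 0.64 (−0.54 to 1.81).

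**Figure D4:**
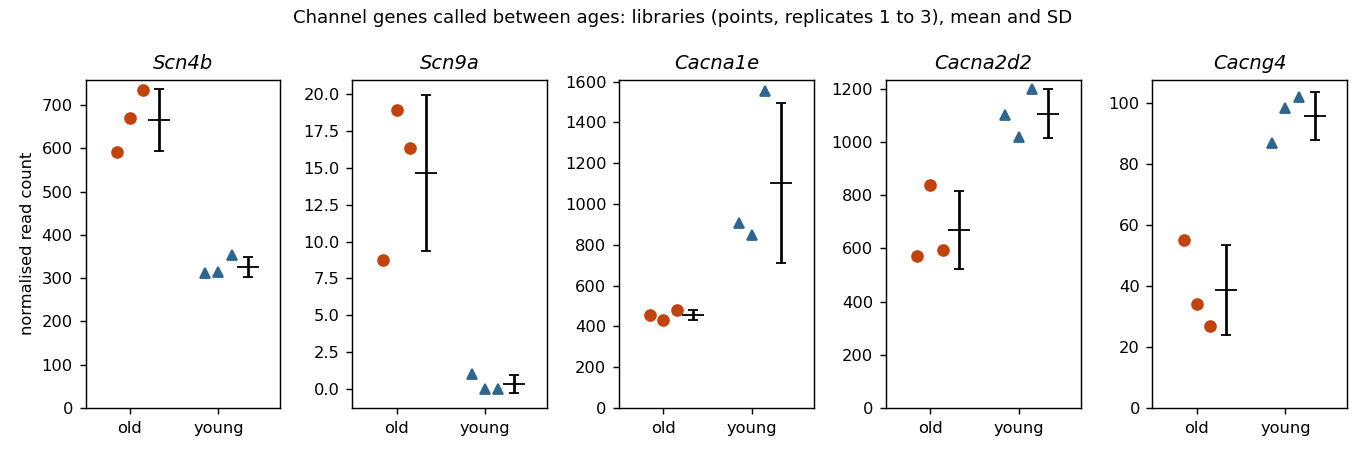
Normalised read counts (y axes, each from 0 or just below) of the 5 channel genes with an adjusted p under 0.05, old left and young right. Points are libraries in the order of replicates 1 to 3, and the bar beside them is the mean with SD (n = 3). In each gene the old and young points do not overlap.

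Of the 9 calcium channel alpha1 genes, Cacna1e, which encodes the R-type channel, fell and the other 8 did not pass. Cacna1e had 458, 432 and 479 normalised read counts in old replicates 1, 2 and 3, against 904, 848 and 1553 in young replicates 1, 2 and 3. The old libraries lay close together at about the same level, and every young library was above them, with young replicate 3 the highest. The means were 456 ± 23.7 normalised read counts in old and 1102 ± 392 in young mice (SD, n = 3 each), a log2 fold change of −1.22 ± 0.22 (limma adjusted p = 0.0176). The call held without each library in turn, with limma adjusted p of 0.0286 to 0.0422. Cacna1e lies on chromosome 1 from 154390731 to 154884501 and overlaps no annotated gene on the opposite strand.

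Cacna1d, the L-type channel gene of inner hair cells and of pacemaker cells, was the most abundant alpha1 transcript per kb. It had 2493, 2026 and 3568 normalised read counts in old replicates 1, 2 and 3, against 2845, 2912 and 3416 in young replicates 1, 2 and 3. The groups overlapped, old replicate 3 was the highest of all, and the log2 fold change was −0.22 (−0.65 to 0.22). Cacna1d made up 68.7 to 73.9% of the summed alpha1 level per kb in old and 65.9 to 68.8% in young libraries, and Cacna1e made up 6.43 to 9.48% in old and 12.5 to 19.4% in young libraries. Cacna1d has an exon that overlaps Chdh on the opposite strand, and strand is not stated, so its reads and these shares are uncertain. The 14 hair cell markers summed to 1973, 2178 and 5536 normalised read counts in old replicates 1, 2 and 3, against 5365, 3399 and 4398 in young replicates 1, 2 and 3. None of them was called (limma), and edgeR and DESeq2 also called 0. An unadjusted p under 0.05 was found for 4, of which 3 were lower and 1 higher in old mice (limma). Of the 14, 11 had a log2 fold change below 0 and 3 above, with a median of −0.57. The part of hair cells in the Cacna1d values was not tested.

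The other L-type genes were Cacna1c, of heart and smooth muscle, and Cacna1f, of the retina. Cacna1c averaged 171 ± 47.3 normalised read counts in old and 220.3 ± 84.4 in young mice (SD, n = 3 each), and Cacna1f averaged 2.56 ± 2 normalised read counts in old and 0.686 ± 0.594 in young mice (SD, n = 3 each). The log2 fold change of Cacna1c was −0.34 (−1.01 to 0.33), and Cacna1f had 8 reads in all in the old and 2 in the young libraries. Of the channels of nerve endings, Cacna1a, the P/Q-type gene, averaged 109.6 ± 34.4 normalised read counts in old and 79.3 ± 14 in young mice (SD, n = 3 each), with a log2 fold change of 0.43 (−0.20 to 1.06). Cacna1b, the N-type gene, had 7.76, 13.2 and 14.4 in the old libraries, against 2.1, 7.26 and 1.02 in the young libraries. Its old values were above all young values at few reads, 37 over the old and 10 over the young libraries, and it did not pass (1.74, 0.31 to 3.16, limma adjusted p = 0.156). Of the T-type genes, Cacna1g averaged 433 ± 87.8 normalised read counts in old and 449.7 ± 43.2 in young mice (SD, n = 3 each), with a log2 fold change of −0.07 (−0.48 to 0.34). Cacna1h averaged 13.4 ± 4.46 in old and 12.5 ± 5.92 in young mice, with a log2 fold change of 0.16 (−0.96 to 1.29), and Cacna1i averaged 2.88 ± 0.0363 in old and 1.04 ± 0.0141 in young mice. Cacna1i had 9 reads in the old and 3 in the young libraries, a ratio of 2.78 (95% interval from the counts alone, 0.693 to 15.9).

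Of the 4 alpha2delta genes, Cacna2d2 fell. The log2 fold changes of all 4 were below 0, except that Cacna2d3 was at 0.10 without old replicate 1. Cacna2d2, whose loss in mice causes ataxia and seizures, had 572, 838 and 596 normalised read counts in old replicates 1, 2 and 3, against 1102, 1017 and 1201 in young replicates 1, 2 and 3. The groups did not overlap, and old replicate 2 was the closest to the young libraries. The log2 fold change was −0.74 ± 0.16 (limma adjusted p = 0.0327). The call was lost in 5 of the 6 fits without 1 library, all but that without old replicate 2, with limma adjusted p up to 0.153. Cacna2d2 has an exon overlap with Gm17141 on the opposite strand. Cacna2d1 had 3135, 2649 and 3223 in the old libraries, against 3206, 3318 and 3201 in the young libraries, which overlapped (−0.12, −0.35 to 0.12). Cacna2d3 averaged 67.6 ± 30.8 normalised read counts in old and 77.9 ± 8.94 in young mice (SD, n = 3 each), with a log2 fold change of −0.31 (−1.14 to 0.51). Cacna2d4, which is known from photoreceptors, averaged 14 ± 7.4 normalised read counts in old and 26.9 ± 3.78 in young mice (SD, n = 3 each), without overlap between the groups, and had a log2 fold change of −1.04 (−2.11 to 0.04, limma adjusted p = 0.251). Summed per kb, the alpha2delta genes stood at 531, 523 and 566 in the old and 643, 648 and 666 in the young libraries. These sums include Cacna2d2, with means of 115 per kb in old and 191 in young mice. Cacna2d1, whose groups overlapped, had means of 404 and 436 per kb.

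None of the 4 calcium channel beta genes passed (limma), although Cacnb1 had an unadjusted p under 0.05, and edgeR and DESeq2 also called 0. Cacnb1, the beta subunit gene of skeletal muscle, had 284, 274 and 237 normalised read counts in old replicates 1, 2 and 3, against 318, 408 and 366 in young replicates 1, 2 and 3. The groups did not overlap, and the log2 fold change was −0.45 (−0.82 to −0.08, limma adjusted p = 0.16). Cacnb2, the beta subunit gene of heart and of inner hair cells, had 1472, 1096 and 1832 in the old libraries, against 1458, 1169.9 and 1955 in the young libraries. Cacnb3, a beta subunit gene of brain and smooth muscle, had 1027, 1411 and 1057 in the old libraries, against 1412, 1432 and 1322 in the young libraries. Cacnb4, whose loss causes the lethargic phenotype in mice, had 1003, 1004 and 1429 in the old libraries, against 1097, 769 and 1014 in the young libraries. These 3 genes overlapped between the groups, with log2 fold changes of −0.06 (−0.58 to 0.46), −0.27 (−0.58 to 0.04) and 0.25 (−0.16 to 0.66).

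Cacng4 was the gamma gene that fell. Its product, like those of Cacng2, Cacng5 and Cacng7, is better known as an auxiliary subunit of AMPA-type glutamate receptors. Cacng4 had 55.3, 34 and 26.9 normalised read counts in old replicates 1, 2 and 3, against 87.1, 98.5 and 102 in young replicates 1, 2 and 3. Every old library was below every young library, with a log2 fold change of −1.35 ± 0.31 (limma adjusted p = 0.0407). The call was lost in 5 of the 6 fits without 1 library, all but that without old replicate 1, with limma adjusted p up to 0.173, and by edgeR (0.0518). Cacng7 averaged 44.4 ± 14 normalised read counts in old and 59.9 ± 20.7 in young mice (SD, n = 3 each) and overlapped (−0.41, −1.22 to 0.41). Cacng2, Cacng5 and Cacng6 averaged 4.11, 13.1 and 11.8 normalised read counts in old and 2.09, 8.64 and 8.95 in young mice. Their groups overlapped, with log2 fold changes of 0.17 (−2.18 to 2.52), 0.35 (−0.92 to 1.61) and 0.34 (−0.71 to 1.39).

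The summed bone and fibrocyte markers were also lower in every old library than in every young library. The 11 bone markers summed to 3184, 3149.9 and 4183 normalised read counts in old replicates 1, 2 and 3, against 8127, 6056 and 5120.4 in young replicates 1, 2 and 3, and 6 of them fell and 0 rose (limma). Of 10 fibrocyte markers 1 fell and 0 rose, and their summed level was 758019, 1219430.0 and 584541 normalised read counts in old replicates 1, 2 and 3, against 1444465, 1245462 and 1328774 in young replicates 1, 2 and 3. Glial markers went both ways: of 18, 3 rose, among them Ngfr and Cnp, and Fabp7 fell. Their median log2 fold change was 0.62. The summed level of the glial markers was 261857, 375555 and 230196 normalised read counts in old replicates 1, 2 and 3. In young replicates 1, 2 and 3 it was 417030, 382826 and 345797, so the sums overlapped, with old replicates 1 and 3 below all young libraries. Ngfr, the neurotrophin receptor of Schwann cells and some neurons, had 45.6, 137 and 107 in the old libraries, against 21, 16.6 and 12.3 in the young libraries (2.36 ± 0.44, limma adjusted p = 0.0189). Of 14 macrophage markers 10 rose and 0 fell. The part of any of these cells in the channel values was not tested.

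Other genes that bind, anchor or tune these channels were examined as a list of 43, and all 43 were in the table. One rose and 2 fell (limma), which is 6.98% of the list beside 5.25% of all genes, and the median log2 fold change was 0.04. Stac2, an adaptor that slows inactivation of L-type calcium channels, had 143, 294 and 371 normalised read counts in old replicates 1, 2 and 3, against 42, 66.4 and 43.9 in young replicates 1, 2 and 3. All old libraries were above all young libraries, with a log2 fold change of 2.31 ± 0.36 (limma adjusted p = 0.01). Nfasc, which encodes neurofascin, the cell adhesion protein that gathers sodium channels at nodes and axon initial segments, had 3205, 3790.0 and 2532 in the old libraries, against 5549, 5386 and 6701 in the young libraries (−0.90 ± 0.15, limma adjusted p = 0.0143). Rem2, a small GTPase that inhibits calcium channels, had 28.1, 13.2 and 28.8 in the old libraries, against 58.7, 78.8 and 83.7 in the young libraries (−1.68 ± 0.37, limma adjusted p = 0.033). Each of these calls was lost without young replicate 3, and that of Rem2 also without young replicate 1 or 2 (limma adjusted p without young replicate 3 of 0.0536, 0.0715 and 0.155 for Stac2, Nfasc and Rem2). Fgf12, a homologous factor that binds the tail of sodium channels and was singled out after its values were seen, had 16.5, 202 and 257 in the old libraries, against 13.6, 12.4 and 5.11 in the young libraries. Old replicates 2 and 3 were far above the other 4 libraries, and the log2 fold change of 3.19 (0.88 to 5.50) did not pass (limma adjusted p = 0.12).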

How the data were processed

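Per the submitters' processing notes, Partek, TopHat2, DESeq2 and build mm10 were used, with no versions or roles. The authors deposited 1 table with a signal value per gene and library. From the values, it is a read count divided by a factor of the library: low values are multiples of 1 step per library, and values divided by that step came within 0.1 of whole reads for 99.9% of entries (the recovered reads). The deposited table also holds p-values, adjusted p-values (missing for 332 genes, 2 of them members, Cacna1f and Cacna1i) and a signed fold change, a score whose sign gives the direction, per the file headers. Annotation and strand are not given in the sources used here.

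Old and young libraries (3 each) were compared by limma 3.58.1 in R 4.3.3 on log2(value + 1), 2-sided, with a variance trend and robust estimation. P-values were adjusted over all 17091 genes by Benjamini-Hochberg, and a gene was called below 0.05. Fold changes on this scale understate the change of genes with few reads. Other settings tried were quantile normalisation, no variance trend, genes averaging 10 or more, added constants of 0.1 or 10, a replicate block, leaving out each library, edgeR 4.0.16 and DESeq2 1.42.0 on recovered reads, and the authors' p-values. The test was also run on simulated reads with the same dispersion for every gene, in which no gene of low level was changed. That run cannot show how the test performs for genes with few reads or at the spread of these libraries. The smallest p of an exact permutation test of 3 against 3 is 0.1, and no such test was made. Counting intervals are exact (95%) and cover counting error only. Libraries of a group differed by more than sampling noise.

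Members and gene lists were chosen with earlier results of these data known. Values in every library are given for members with an unadjusted p under 0.05, the 8 highest per kb and Scn9a; all others are given by means or fold changes. 2 members and 1 marker are not reported here by name or value, and they stay in the counts, medians and sums. Gene positions and lengths come from GENCODE M21 (GRCm38, the assembly of mm10), which holds all 35 members. Because strand is not stated, reads are uncertain for 9 members with an exon that overlaps a gene on the opposite strand: Cacna1a, Cacna1d, Cacna1h, Cacna2d2, Cacnb1, Cacnb2, Cacnb4, Cacng2 and Scn9a. RefSeq promoter windows matched 25 members.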

Additional observations from a re-analysis of the deposited data

How the results depend on the processing

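All settings planned were run. The genes called higher and lower numbered 463 and 435, against 194 and 113 without a variance trend, 976 and 843 by DESeq2 and 975 and 843 in the authors' deposited table. Without 1 library they ranged from 139 to 554 higher and from 91 to 580 lower, lowest without young replicate 3 and highest without old replicate 2. They were 258 and 354 without old replicate 3, 299 and 262 without young replicate 1, and 174 and 114 without young replicate 2. Of the channel genes, 2 were called higher and 3 lower. Without a variance trend 0 were lower and 3 higher, with Cacna1i added to Scn4b and Scn9a (limma adjusted p of 0.0204 for Cacna1i). Cacna1i had only 9 reads in the old and 3 in the young libraries. Where the mean was at least 10 there was 1 higher, and 4 were higher by DESeq2 and in the authors' deposited table. Without 1 library, 1 to 3 were higher and 1 to 2 lower. Of the related genes, 1 was called higher and 2 lower. Without a variance trend 0 were higher and 0 lower, and 2 were higher by DESeq2 and in the authors' deposited table. Without 1 library, 0 to 3 were higher and 0 to 3 lower. The 14 channel genes whose groups did not overlap were 12 after quantile normalisation. The 8 highest per kb were the same by total exon length, but their order was not. By that length the mean of Cacnb2 was 113 per kb, below Cacnb4 at 117 and Cacna1d at 228. The log2 fold change of Cacnb2 changed sign without old replicate 2 or young replicate 3, ranging from −0.23 to 0.14 without 1 library. Other members that did not pass changed sign too, with ranges without 1 library of −0.88 to 0.94 for Cacng2, −0.24 to 0.46 for Cacna1h, −0.62 to 0.10 for Cacna2d3, −0.11 to 0.88 for Cacng5, −0.35 to 0.12 for Scn2b and −0.16 to 0.11 for Cacna1g. The cause of these changes was not tested.

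Same-numbered libraries did not deviate together (correlations of −0.24, −0.10 and −0.09 for numbers 1, 2 and 3). With 3 libraries a group, these correlations cannot settle whether the numbers pair them. With a replicate block, 230 genes were higher and 176 lower, 1 channel gene was higher (Scn4b) and 1 lower (Cacna1e), and 1 related gene was lower. Scn9a, Cacna2d2 and Cacng4 then had limma adjusted p of 0.0517, 0.0832 and 0.0948. Depth limits Scn9a, Scn3a, Scn4a, Cacna1b, Cacna1f, Cacna1i, Cacng1 and Cacng2, which averaged under 10 normalised read counts.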
